A study of Mus musculus with 21 samples.

Results

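The genes described here are the RUNX transcription factors and their cofactors, 7 genes in all: Runx1, Runx2, Runx3, Cbfb, Runx1t1, Cbfa2t2 and Cbfa2t3. They were taken by gene symbol, and each was found once among the 22899 genes of the coculture table and once among the 27968 genes of the sorted-cell table. RNA-seq was performed on 21 libraries, 3 in each of 7 groups. Mouse pluripotent stem cells (PSCs) of the 129/ola strain were taken through embryoid bodies in a 3D self-assembling peptide, and colonies of 6 to 8 days were reseeded on OP9 stromal cells (3D+OP9) or on 0.1% gelatin (3D+0.1% gelatin).

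OP9 is a mouse bone marrow stromal line that supports blood cell formation. It was treated with mitomycin C so that it no longer divided, and the medium held stem cell factor, IL-3 and Flt3 ligand. On day 5, total cells were collected from both cultures, and LSK (Lin-Sca-1+c-kit+) cells with or without the endothelial protein C receptor CD201 were sorted from 3D+OP9 (D5-LSKCD201+ and D5-LSKCD201-). Undifferentiated 129/ola embryonic stem cells sorted with SSEA-1 (mESC) were the starting point. The strain is that of the labels, and the study's methods name C57BL/6 stem cells as well. LSKCD201+ cells of C57BL/6 mice, from bone marrow at 6 to 8 weeks (BM-LSKCD201+) and from E12.5 fetal liver (FL-LSKCD201+), served as the in vivo references. By the labels, the PSC-derived and in vivo groups therefore differ in strain as well as origin, and these cannot be told apart. The study calls the sorted-cell replicates biological, and speaks of independent experiments where it shows coculture and day 5 sorted-cell data. Whether mESC replicates were separate cultures, or in vivo replicates pools of animals, is not given in the sources used here, and p-values there measure only the spread between these libraries.

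RUNX proteins bind DNA through a runt domain, and CBFB, which does not touch DNA itself, joins that domain and makes the binding stronger. RUNX1 is needed for endothelial cells to give rise to the first hematopoietic stem cells, RUNX2 is best known for bone formation, and RUNX3 for T cell and sensory neuron development. RUNX1T1 (ETO), CBFA2T2 (MTGR1) and CBFA2T3 (ETO2) are corepressors that bring histone deacetylases to DNA-bound factors. CBFA2T3 is a component of the TAL1 complex in blood progenitors, and CBFA2T2 works with PRDM14 in pluripotent cells.

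All 7 genes are protein coding. In GRCm38 with the GENCODE M21 annotation, Runx1 lies on the minus strand at chr16:92601466-92826149, Runx2 on the minus strand at chr17:44495987-44814797 and Runx3 on the plus strand at chr4:135120652-135177990. Cbfb lies on the plus strand at chr8:105170674-105217989, Runx1t1 on the plus strand at chr4:13743436-13893649, Cbfa2t2 on the plus strand at chr2:154436481-154539356 and Cbfa2t3 on the minus strand at chr8:122625141-122699109.

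RefSeq start-site windows (GRCm38.p6, 250 bases before to 50 after a start) were matched by symbol for 6 of the 7 genes, 9 windows in all. Runx1t1 had no entry. Runx1 has a pair of windows 128.7 kb apart and Runx3 a pair 31.9 kb apart. The FPKM of a gene sums its transcripts, so the use of its separate start sites cannot be read from these data. The most upstream windows of the Runx genes are shown because they carry the letters that RUNX proteins themselves bind, TGTGGT, or ACCACA on the other strand, and because the genes of these windows were high in the same groups of sorted cells. Capitals mark every match to TGTGGT or ACCACA, and each window is read 5′ to 3′ on the strand of its gene. The windows are chr16:92826025-92826324 (minus strand) for Runx1, chr17:44814578-44814877 (minus strand) for Runx2 and chr4:135120395-135120694 (plus strand) for Runx3.
Runx1: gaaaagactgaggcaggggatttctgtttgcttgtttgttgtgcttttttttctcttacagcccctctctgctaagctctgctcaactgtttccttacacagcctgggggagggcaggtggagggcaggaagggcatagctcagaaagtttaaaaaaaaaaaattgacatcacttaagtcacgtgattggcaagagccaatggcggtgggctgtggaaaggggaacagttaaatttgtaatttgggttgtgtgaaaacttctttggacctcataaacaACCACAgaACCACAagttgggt
Runx2: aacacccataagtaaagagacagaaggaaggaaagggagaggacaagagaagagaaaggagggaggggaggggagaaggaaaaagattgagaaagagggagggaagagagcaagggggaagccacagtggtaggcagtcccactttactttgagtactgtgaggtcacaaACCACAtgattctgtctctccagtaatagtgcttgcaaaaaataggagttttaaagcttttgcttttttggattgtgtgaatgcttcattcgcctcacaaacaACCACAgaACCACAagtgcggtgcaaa
Runx3: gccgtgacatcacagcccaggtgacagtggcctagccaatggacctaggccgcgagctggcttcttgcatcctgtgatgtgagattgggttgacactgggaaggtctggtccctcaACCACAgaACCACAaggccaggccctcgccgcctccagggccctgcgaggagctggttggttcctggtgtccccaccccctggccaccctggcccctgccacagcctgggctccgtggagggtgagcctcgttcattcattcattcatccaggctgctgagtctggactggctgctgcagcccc

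The windows of Runx1 and Runx3 held 2 matches each and that of Runx2 held 3. Of the 32851 windows in the table, 16.8% held at least 1 match and 1.81% held 2 or more. The other window of Runx1, the other window of Runx3 and the 4 windows of Cbfb, Cbfa2t2 and Cbfa2t3 held none. The 3 windows shown share an unbroken run of 18 bases, with a pair of matches 2 bases apart.
Shared run: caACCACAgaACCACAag
It starts 26 bases after the start site in Runx1, 21 bases after it in Runx2 and 136 bases before it in Runx3. Among the 32851 windows the run occurred in 4. The fourth was that of Gm16225 (chr4:135120327-135120626, minus strand), which shares 232 bases with the Runx3 window. Runx1 and Runx2 share 22 bases around it. Since the windows were shown for their matches and the run was taken from them, these shares and counts are description only. A match describes the letters of a window and does not show that a protein was bound there.

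The values are FPKM, read numbers scaled by transcript length and by library size, so that levels of different genes in a table can be set side by side. Each pair of groups was compared with limma on log2(FPKM + 1), keeping genes whose mean over the 6 libraries reached 0.5 FPKM, with Benjamini-Hochberg adjustment over every gene tested. A gene was called where its adjusted p was below 0.05 and its log2 fold change was 1 or more in either direction. The scale understates the change of weakly expressed genes. Coculture and sorted-cell tables were normalized separately, and no test crosses them.

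Procr, the gene for CD201, by which the cells were sorted, averaged 3.48 ± 0.411 FPKM (SD, n = 3) in D5-LSKCD201- but 59.7 ± 2.03 in D5-LSKCD201+. D5-LSKCD201- libraries held 3749 to 4247 FPKM summed over 8 pluripotency markers, against 6835 to 7400 in mESC and 24.5 to 32.8 in D5-LSKCD201+. The 8 endothelial markers summed to 1712 to 1743 FPKM in D5-LSKCD201+ and to at most 203 in any other sorted library. Ptprc, the pan-leukocyte antigen CD45, averaged 0.633 ± 0.269 FPKM in D5-LSKCD201-, 0.409 ± 0.167 in D5-LSKCD201+, 43.5 ± 7.54 in FL-LSKCD201+, and 66.8 ± 4.21 in BM-LSKCD201+. In 4 groups, 1 library stood apart from the other pair by its median absolute log2 difference to the nearest replicate. This was 0.271 for FL-LSKCD201+ replicate 1, 0.194 for BM-LSKCD201+ replicate 1, 0.204 for D5-LSKCD201- replicate 2 and 0.202 for 3D+OP9 replicate 3, where the other pairs were at 0.0708, 0.0653, 0.0799 and 0.0825. Leaving out any one of these 4 libraries changed no call of a member except that of Cbfb in FL-LSKCD201+ against mESC, which passed at a log2 fold change of 1.02 without FL-LSKCD201+ replicate 1. Depth is unknown, since the values are FPKM alone.

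The 7 genes differed widely in level. Among sorted cells, the Runx genes, Cbfb and Cbfa2t3 had their highest means in BM-LSKCD201+ and their next highest in FL-LSKCD201+. The plot of every library shows this ladder for Runx1, Runx2 and Cbfa2t3, the narrower range of Cbfb and Runx1t1, and the high level of Cbfa2t2 in mESC.

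**Figure D1:**
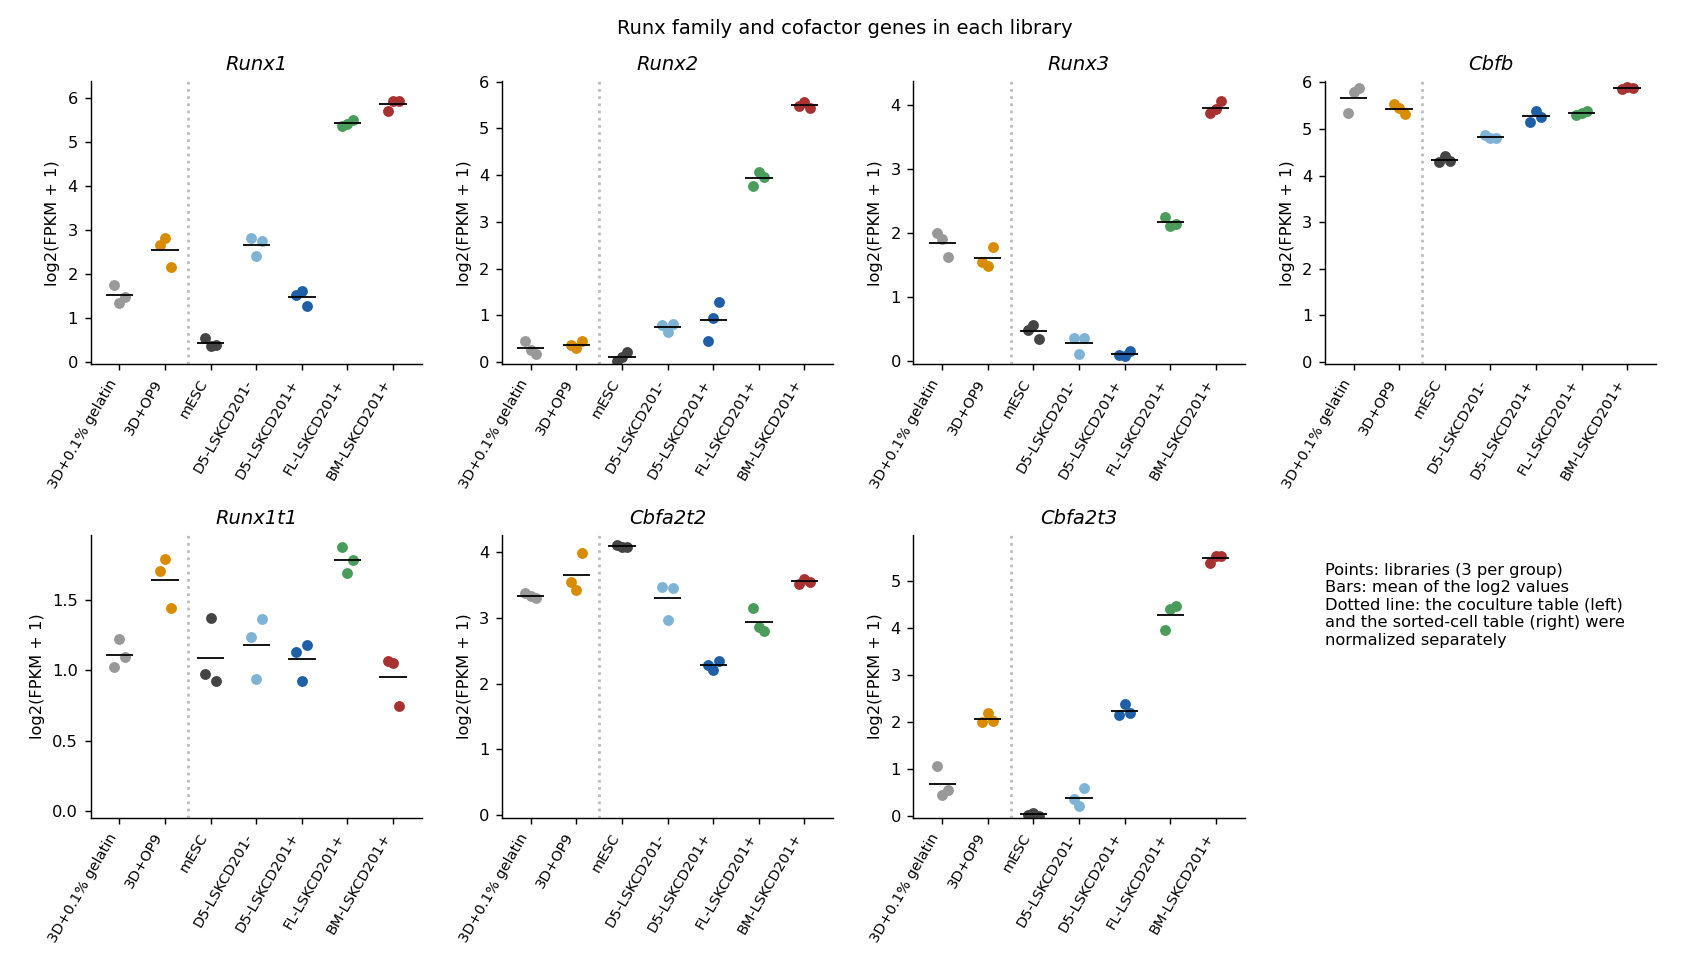
Levels of the 7 genes as log2(FPKM + 1) in each of the 21 libraries, by group; points are libraries, bars the mean of 3, and the dotted line parts the coculture from the sorted-cell table. Runx1 lies between 40.6 and 60.7 FPKM in the in vivo libraries and at most at 6.06 FPKM in the other sorted libraries.

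Runx1 was the most abundant Runx gene in each of the 12 libraries of in vivo and D5-LSKCD201- cells and of 3D+OP9, and in 2 of the 3 D5-LSKCD201+ libraries. Among sorted cells its level was 0.460, 0.290 and 0.314 FPKM in mESC and 1.89, 2.09 and 1.41 in D5-LSKCD201+. D5-LSKCD201- held 6.06, 4.37 and 5.74 FPKM. It was 40.6, 41.6 and 44.4 FPKM in FL-LSKCD201+ and 51.3, 60.6 and 60.7 in BM-LSKCD201+. No 2 groups overlapped, and both day 5 populations lay above every mESC library and below every in vivo library. D5-LSKCD201- had a mean 3.00 times that of D5-LSKCD201+, and FL-LSKCD201+ a mean 7.83 times that of D5-LSKCD201-. FL-LSKCD201+ and BM-LSKCD201+ were neighbours in this order, at 42.2 ± 1.97 and 57.5 ± 5.39 FPKM (SD, n = 3), and their difference did not reach the fold threshold (log2 fold change -0.44, SE 0.10, limma adjusted p = 0.00747).

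Runx2, the bone regulator, was almost silent in mESC, at 0.0189, 0.0744 and 0.157 FPKM. It measured 0.724, 0.550 and 0.756 FPKM in D5-LSKCD201-, while D5-LSKCD201+ had 0.364, 0.921 and 1.45, so that the day 5 groups overlapped. In vivo it reached 12.5, 15.7 and 14.6 FPKM in FL-LSKCD201+ and 43.7, 46.4 and 42.4 in BM-LSKCD201+. The bone marrow libraries were therefore a separate cluster above the fetal liver libraries, with a mean 3.09 times as high. Runx2 overlaps genes on the opposite strand, among them the antisense Runx2os1, at 9.73 ± 1.26 FPKM in BM-LSKCD201+ and 2.16 ± 1.54 in FL-LSKCD201+, and Supt3, at 29.2 ± 3.53 and 28.1 ± 0.688. Whether strand was used in counting is not given in the sources used here, and reads from overlapping exons cannot then be told apart.

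Runx3, which acts in T cells and neurons, was the weakest Runx gene in both day 5 sorted populations and in vivo. Its values were 0.281, 0.0849 and 0.289 FPKM for D5-LSKCD201-, 0.0676, 0.0558 and 0.113 for D5-LSKCD201+, and 0.399, 0.473 and 0.274 for mESC. D5-LSKCD201- overlapped with each of the other 2 groups. FL-LSKCD201+ held 3.78, 3.34 and 3.41 FPKM and BM-LSKCD201+ 13.8, 14.4 and 15.7, a mean 4.17 times as high. In bone marrow the T and NK cell markers summed to 88.6 to 104 FPKM, against 31.3 to 36.2 in fetal liver, with 1 of the markers at 1 FPKM or more in each group and Cd3e at 0 in both. Their part in the Runx3 difference was not tested, nor was that of Gm16224, an antisense gene on the opposite strand within Runx3. Gm16224 was listed at 0 in mESC and both day 5 LSK groups. It averaged 0.165 ± 0.0563 FPKM in FL-LSKCD201+ and 1.02 ± 0.652 in BM-LSKCD201+.

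Cbfb, the shared partner, was well expressed in each library, and its group means in sorted cells lay within a 2.99-fold range. It measured 18.7, 20.3 and 19.0 FPKM in mESC and 28.4, 27.1 and 26.8 in D5-LSKCD201-. In D5-LSKCD201+ it reached 34.6, 41.1 and 37.3. FL-LSKCD201+ was at 38.6, 39.3 and 40.9 FPKM, overlapping with D5-LSKCD201+, and BM-LSKCD201+ was at 56.8, 58.7 and 57.5. Of its neighbouring groups, D5-LSKCD201+ and FL-LSKCD201+ did not differ beyond their spread (log2 fold change -0.07, SE 0.08, limma adjusted p = 0.451).

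Among the corepressors, Cbfa2t3 ranged most. It was at 0.0166 and 0.0432 FPKM in mESC replicates 1 and 2 and listed at 0 in replicate 3, and at 0.278, 0.149 and 0.497 FPKM in D5-LSKCD201-. D5-LSKCD201+ held 3.40, 4.20 and 3.54 FPKM, FL-LSKCD201+ 14.5, 20.03 and 21.1, and BM-LSKCD201+ 40.6, 45.2 and 44.7. Each group lay apart from the next, and D5-LSKCD201+ stood above D5-LSKCD201-, the reverse of the order for Runx1. The read-through gene Gm20388 spans Cbfa2t3 on the opposite strand. It was listed at 0 in each mESC library and averaged 0.0908 ± 0.157 FPKM in D5-LSKCD201-. Its mean was 4.31 ± 4.22 in D5-LSKCD201+, with one library of the latter listed at 0 and the highest at 8.44, and 1.97 ± 1.87 in FL-LSKCD201+ and 0.491 ± 0.808 in BM-LSKCD201+. Like Cbfa2t3, it thus had a higher mean in D5-LSKCD201+ than in D5-LSKCD201- and mESC, and the part of this overlap in the Cbfa2t3 values was not tested.

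Cbfa2t2 had a different order, with its highest level in mESC at 16.3, 15.9 and 15.9 FPKM and its next highest mean in BM-LSKCD201+. It was at 10.5, 11.1 and 10.7 FPKM in BM-LSKCD201+, 10.1, 6.84 and 10.02 in D5-LSKCD201-, and 7.86, 6.28 and 5.93 in FL-LSKCD201+. D5-LSKCD201+ was the lowest group, at 3.88, 3.63 and 4.07 FPKM, below each library of the other groups. D5-LSKCD201- and FL-LSKCD201+ overlapped.

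Runx1t1 stayed low in every sorted library. It measured 0.965, 1.58 and 0.894 FPKM in mESC and 1.36, 0.913 and 1.58 in D5-LSKCD201-. D5-LSKCD201+ had 1.19, 0.898 and 1.27. FL-LSKCD201+ was the highest group at 2.66, 2.23 and 2.44 FPKM and did not overlap with any other, and BM-LSKCD201+ was at 1.09, 1.07 and 0.677. Apart from fetal liver, neighbouring groups overlapped, and none of their differences passed (limma adjusted p from 0.368 to 0.946).

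The make-up of the Runx family differed between groups. Runx1 accounted for 85.9 ± 1.36% of summed Runx FPKM in D5-LSKCD201- (SD, n = 3), 70.3 ± 1.56% in FL-LSKCD201+ and 49.4 ± 2.04% in BM-LSKCD201+. Runx2 supplied 38.0 ± 2.26% in BM-LSKCD201+ and 23.8 ± 2.01% in FL-LSKCD201+. In D5-LSKCD201+ the shares were unsteady, with Runx2 at 15.7, 29.99 and 48.8% of the sum in replicates 1, 2 and 3, from 0.364, 0.921 and 1.45 FPKM. In mESC the sum itself was 0.820 ± 0.0686 FPKM, so its shares rest on very low values.

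Within the ETO family, Cbfa2t2 made up 93.2 ± 2.19% of summed FPKM in mESC and 85.2 ± 2.02% in D5-LSKCD201-. In D5-LSKCD201+ it held 44.4 ± 2.46% and Cbfa2t3 42.7 ± 4.70%. Cbfa2t3 was the main family member in vivo, with 66.5 ± 7.53% in FL-LSKCD201+ and 78.8 ± 0.941% in BM-LSKCD201+. FL-LSKCD201+ replicate 1, which stood apart, had the lowest of the 3 fetal liver shares at 57.9%.

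**Figure D2:**
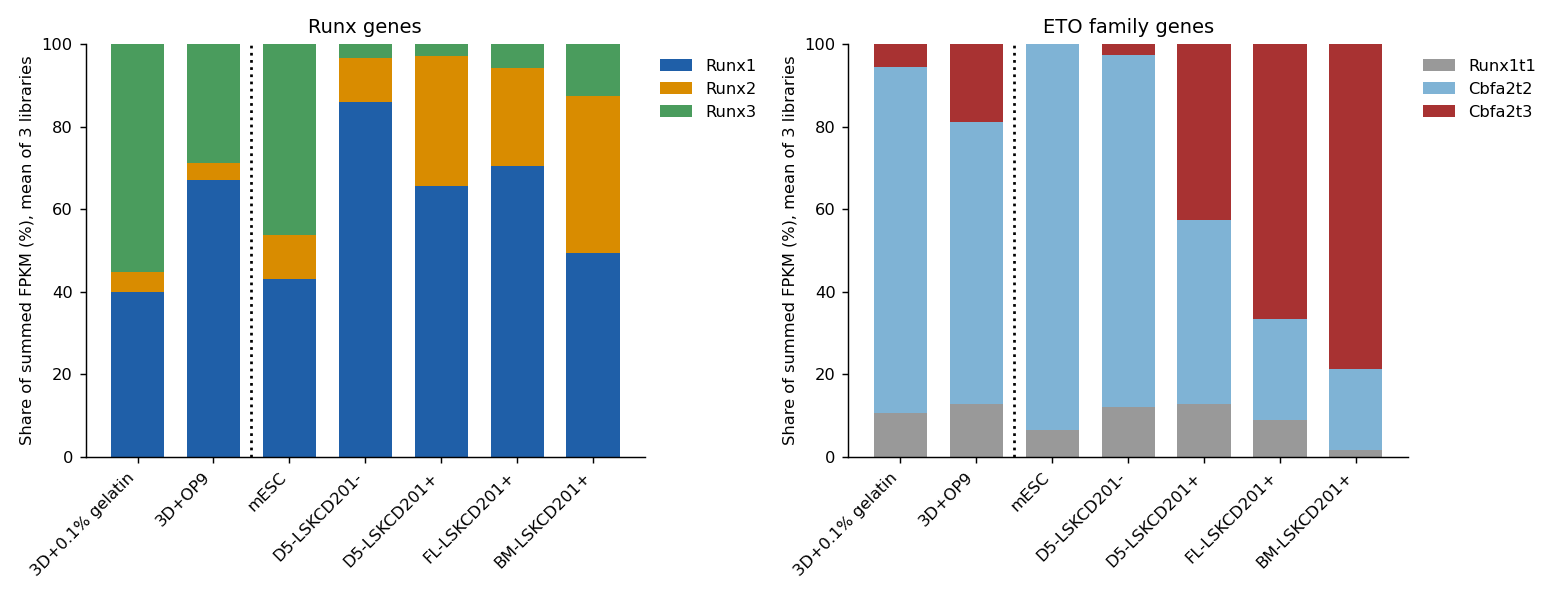
Share of each gene in the summed FPKM of the Runx genes (left) and of the ETO family (right), in percent, as the mean of 3 libraries per group; the dotted line parts the tables. Runx1 holds 85.9% of the Runx sum in D5-LSKCD201-, and Cbfa2t3 goes from 2.79% of the ETO family sum in D5-LSKCD201- to 42.7% in D5-LSKCD201+.

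Set against their partner, the Runx genes together had 0.0425 ± 0.00404 times the FPKM of Cbfb in mESC and 0.229 ± 0.0383 in D5-LSKCD201-, but 0.0738 ± 0.00627 in D5-LSKCD201+. The ratio was 1.51 ± 0.0365 in FL-LSKCD201+ and 2.02 ± 0.0869 in BM-LSKCD201+. Transcripts of Cbfb thus outnumbered those of the Runx genes per length in each PSC-derived library, and the reverse held in each in vivo library. In the coculture table the ratio was 0.173 ± 0.0144 in 3D+OP9 and 0.0993 ± 0.0410 in 3D+0.1% gelatin.

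**Figure D3:**
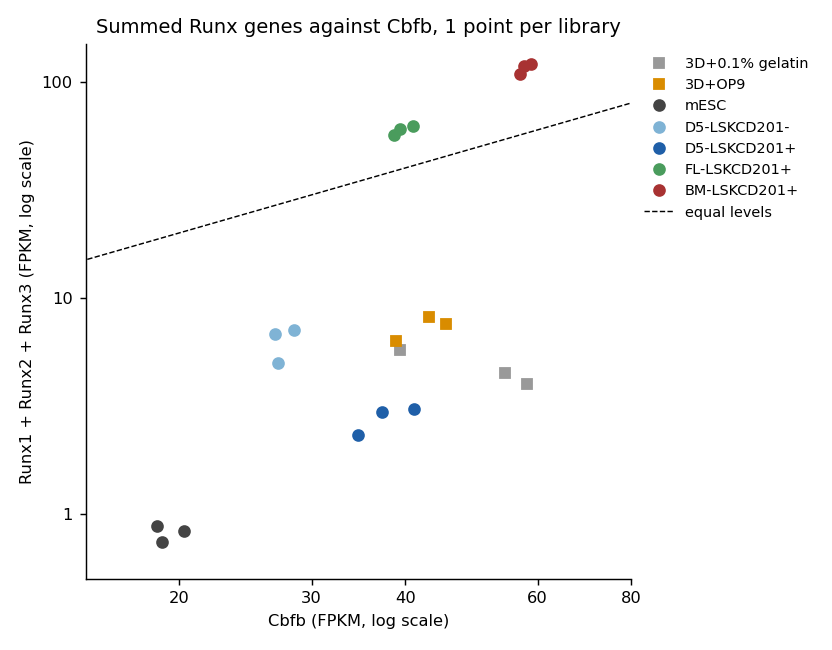
Summed FPKM of Runx1, Runx2 and Runx3 against the FPKM of Cbfb, both on log scales, with 1 point per library and a dashed line at equal levels; squares belong to the coculture table. The 6 in vivo libraries lie above the line and the others below it.

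The first comparison asks how the stromal layer relates to these genes in total day 5 cells. Runx1 and Cbfa2t3 were higher in 3D+OP9 than in 3D+0.1% gelatin. Runx1 was at 5.35, 6.12 and 3.51 FPKM in 3D+OP9 and at 2.39, 1.54 and 1.78 in 3D+0.1% gelatin. The groups did not overlap, and the mean was 2.62 times as high (log2 fold change 1.03, SE 0.20, limma adjusted p = 0.0237). The call for Runx1 was lost without 3D+OP9 replicate 1 or 2 or 3D+0.1% gelatin replicate 2 or 3, with adjusted p of 0.0962, 0.0884, 0.115 and 0.0809. It was also lost with no filter on low values (adjusted p = 0.0758) and with quantile normalization (log2 fold change 0.93, adjusted p = 0.0515). Without 3D+OP9 replicate 3, which stood apart, it was called at 1.22 (adjusted p = 0.00312).

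Cbfa2t3 was at 3.00, 3.54 and 3.04 FPKM in 3D+OP9 and at 1.07, 0.36 and 0.46 in 3D+0.1% gelatin, again without overlap, a mean 5.07 times as high (log2 fold change 1.39, SE 0.18, limma adjusted p = 0.00553). Without 3D+OP9 replicate 3 it was at 1.41. The 2 called were 2 of 6 members tested, where 2.62% of all 12958 genes tested were called. That share is 339 genes and moved with the processing. It was 209 of 12996 genes without 3D+0.1% gelatin replicate 2, 242 of 19321 with no filter and 531 of 12958 with a pseudocount of 0.1. In bulk cultures, fewer cells of a type and less RNA per cell cannot be told apart. The 8 endothelial markers summed to 86.0 to 102 FPKM in 3D+OP9 and 9.63 to 21.2 in 3D+0.1% gelatin, with 7 of the 8 called higher, and the 5 erythroid markers summed to 122 to 433 against 4.26 to 11.5, with 3 called higher. The stromal markers, which OP9 cells themselves could supply, summed to 55.8 to 72.9 against 38.8 to 48.3, with 2 of 7 tested called higher. Megakaryocyte markers summed to 6.51 to 8.49 against 0.44 to 0.72, with the 1 tested called higher. Pan-hematopoietic markers summed to 11.3 to 15.4 against 6.63 to 8.75, with 1 of 4 tested called higher. The sums of the pluripotency markers overlapped, at 826 to 1657 against 1277 to 1366. Their part in the Runx1 and Cbfa2t3 differences was not tested.

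The other members were not called. Runx1t1 measured 2.26, 2.45 and 1.71 FPKM in 3D+OP9 and 1.03, 1.33 and 1.13 in 3D+0.1% gelatin, without overlap (log2 fold change 0.53, SE 0.14, limma adjusted p = 0.0650). Cbfa2t2 had 10.7, 9.70 and 14.9 against 9.39, 9.13 and 8.88 FPKM (adjusted p = 0.273). Runx3 had 1.93, 1.80 and 2.46 against 2.99, 2.77 and 2.10 FPKM, and Cbfb 45.3, 43.0 and 38.9 against 39.4, 54.3 and 58.0, both overlapping, with adjusted p of 0.387 and 0.397. Runx2, at 0.297 ± 0.0666 and 0.230 ± 0.128 FPKM, fell under the filter. Runx3 was the most abundant Runx gene in 3D+0.1% gelatin, with 55.3 ± 5.30% of the Runx sum, and had 28.8 ± 8.84% in 3D+OP9.

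Within the day 5 LSK cells, the sort by CD201 parted the genes in opposite directions. In D5-LSKCD201+, Cbfa2t3 was higher than in D5-LSKCD201-, by a mean ratio of 12.1 (log2 fold change 1.85, SE 0.13, limma adjusted p = 1.4e-05). Runx1 was lower (log2 fold change -1.19, SE 0.15, adjusted p = 0.000309), and so was Cbfa2t2 (log2 fold change -1.02, SE 0.15, adjusted p = 0.000729). Of 6 members tested, 1 was called higher and 2 lower, against 24.7% of all 13691 genes called. Cbfb was short of the fold threshold, with a mean ratio of 1.37 (log2 fold change 0.44, SE 0.08, adjusted p = 0.00160), while Runx2 and Runx1t1 had log2 fold changes of 0.15 and -0.10 (adjusted p = 0.540 for both) and Runx3 was under the filter.

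The call for Cbfa2t2 lies at the edge of the fold threshold, and its log2 fold change was -0.94 without either D5-LSKCD201- replicate 1 or replicate 3 and -0.99 without D5-LSKCD201+ replicate 2. With quantile normalization it was -0.97. Without D5-LSKCD201- replicate 2, which stood apart, Runx1 was at -1.31, Cbfa2t2 at -1.19 and Cbfa2t3 at 1.77, each still called. The marker sums named above moved with these differences. All 8 pluripotency markers were called lower in D5-LSKCD201+ and all 8 endothelial markers higher. Of the pan-hematopoietic markers, 3 of 7 tested were called higher, and the sum of all 8 was 149 to 152 FPKM against 32.2 to 34.4 in D5-LSKCD201-. Lcp1 (92.2 against 10.1) and Cd53 (22.4 against 0.893) made up most of that difference. Ptprc, Rac2 and Cd48 had lower means in D5-LSKCD201+, and Vav1 was at 1.35 FPKM in both groups. Of the megakaryocyte markers, 2 of 2 tested were called higher, with sums of 45.6 to 48.0 FPKM against 4.01 to 4.82. Itga2b made up most of these sums, at 45.2 against 3.78 FPKM, and Pf4 was at 1.75 against 0.178. Gp9, Gp1bb, Ppbp and Treml1 fell under the filter and had lower means in D5-LSKCD201+. Of the hepatocyte markers, 2 of 2 tested were called lower, with sums of 0.668 to 0.918 FPKM against 4.74 to 7.41. Erythroid markers summed to 26.9 to 39.8 FPKM against 39.9 to 91.0, and of 4 tested, 1 (Epor) was called higher and 2 (Klf1 and Hbb-bh1) lower. For stromal markers the sums were 65.4 to 68.7 against 26.9 to 49.8, with 2 of 8 tested called higher and 1 lower. Of 4 myeloid markers tested, 0 were called. Their part in the member differences was not tested. Runx1 itself was above mESC in both day 5 populations.

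**Figure D4:**
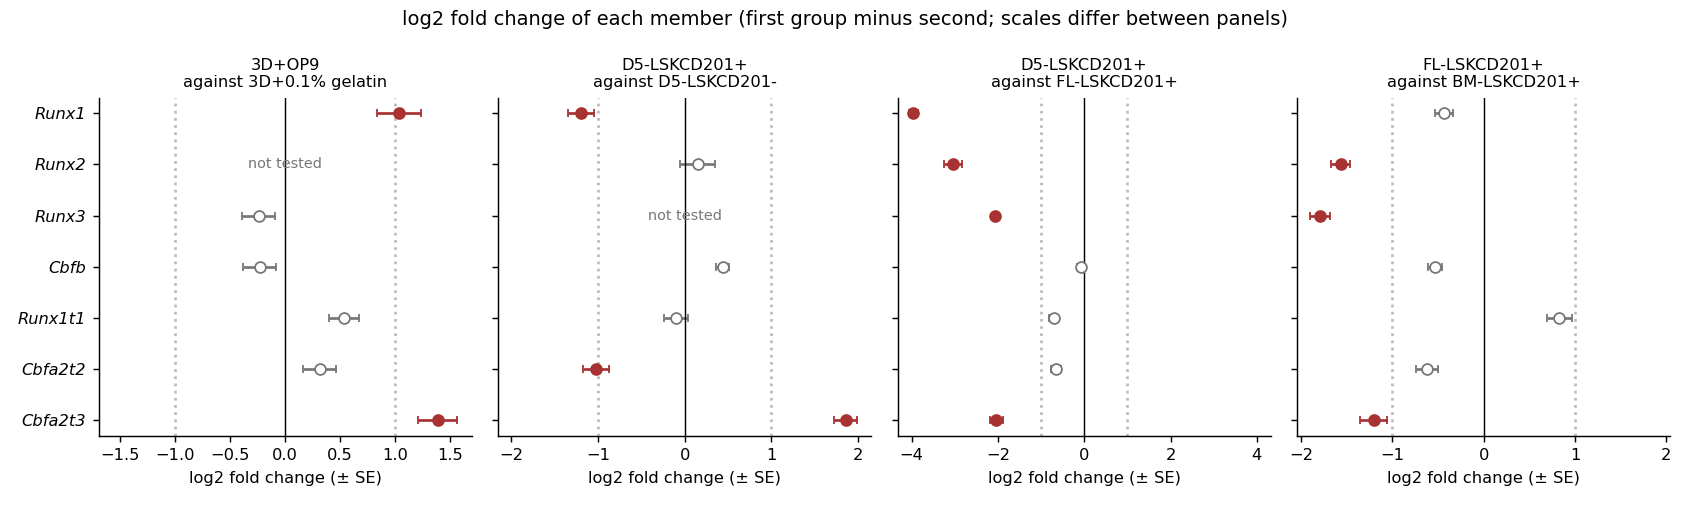
log2 fold change of each gene with its SE, first group minus second, in 4 comparisons; filled points passed an adjusted p of 0.05 and the dotted lines at an absolute log2 fold change of 1, open points did not, and the horizontal scales differ. Runx1 and Cbfa2t3 go the same way in the coculture comparison (1.03 and 1.39) and opposite ways between D5-LSKCD201+ and D5-LSKCD201- (-1.19 and 1.85).

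Against mESC, the day 5 groups show what had been reached from the starting cells. In D5-LSKCD201+, Runx1 was higher (log2 fold change 1.04, SE 0.11, limma adjusted p = 1.7e-05; 0.96 and not called without D5-LSKCD201+ replicate 2), Cbfa2t3 was higher (2.21, SE 0.09, adjusted p = 2.0e-08) and Cbfa2t2 lower (-1.81, SE 0.06, adjusted p = 7.8e-09). These were 3 of 5 members tested, with 37.6% of all genes called in that comparison. Cbfb came close to the fold threshold (0.93, adjusted p = 1.1e-06), and Runx1t1 was at -0.01. Runx2 and Runx3 were under the filter. In D5-LSKCD201-, Runx1 was the single member called of 4 tested (log2 fold change 2.23, SE 0.13, adjusted p = 1.1e-05), with 14.3% of all genes called. Cbfb and Cbfa2t2 passed the adjusted p alone there, at log2 fold changes of 0.49 and -0.79. The 2 comparisons share the mESC libraries.

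Compared with mESC, both in vivo groups were higher in the 3 Runx genes and Cbfa2t3. In FL-LSKCD201+ the log2 fold changes were 4.996 for Runx1, 3.82 for Runx2, 1.71 for Runx3 and 4.24 for Cbfa2t3, and -1.16 for Cbfa2t2, which is 5 of 7 members called against 42.3% of all genes. Cbfb was just short of the fold threshold, at 0.9994 with an adjusted p of 1.1e-05. With a pseudocount of 0.1 it was called at 1.03, and so was Runx1t1, at 1.06 (adjusted p = 0.00442) in place of 0.69. In BM-LSKCD201+ the values were 5.43 for Runx1, 5.38 for Runx2, 3.50 for Runx3, 5.45 for Cbfa2t3 and 1.53 for Cbfb, again 5 of 7, against 53.1% of all genes. Here Cbfa2t2 was at -0.54 and not called, and Runx1t1 at -0.14 (adjusted p = 0.414).

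Compared with the in vivo cells that carry the same surface markers, D5-LSKCD201+ cells were lower in the 3 Runx genes and Cbfa2t3 and had a level of Cbfb close to that of fetal liver. Against FL-LSKCD201+ the log2 fold changes were -3.96 for Runx1, -3.04 for Runx2, -2.06 for Runx3 and -2.04 for Cbfa2t3 (SE 0.08 to 0.22, limma adjusted p from 2.4e-07 to 2.4e-05). In FPKM, fetal liver was 23.5-fold higher for Runx1, 15.7-fold for Runx2 and 4.98-fold for Cbfa2t3. For Runx3 it was 44.4-fold higher, over a mean of only 0.0789 FPKM in D5-LSKCD201+. These 4 of 7 members were called, with 34.7% of all genes. Runx1t1 and Cbfa2t2 were at -0.70 and -0.66, short of the fold threshold, although with a pseudocount of 0.1 Runx1t1 was called at -1.07 (adjusted p = 0.00132).

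Against BM-LSKCD201+ the same 4 genes were at -4.39, -4.60, -3.86 and -3.24, and Cbfa2t2 at -1.28, which is 5 of 7 called with 44.7% of all genes. With quantile normalization Cbfa2t2 was at -0.96 and not called. Cbfb was at -0.60, short of the threshold. D5-LSKCD201- cells were likewise lower than the in vivo cells in the 3 Runx genes and Cbfa2t3. Cbfa2t2 against FL-LSKCD201+ and Runx1t1 against BM-LSKCD201+ went the other way, at 0.37 and 0.23, and were not called. Against FL-LSKCD201+ the log2 fold changes were -2.77 for Runx1, -3.19 for Runx2, -1.89 for Runx3 and -3.89 for Cbfa2t3, 4 of 7 members called with 37.3% of all genes. Against BM-LSKCD201+ they were -3.20, -4.75, -3.68 and -5.10, with Cbfb at -1.04, 5 of 7 called with 49.3% of all genes, although with quantile normalization Cbfb was at -0.96 and not called. The in vivo libraries are shared between these comparisons. Pan-hematopoietic markers summed to 1505 to 1778 FPKM in FL-LSKCD201+ and 1983 to 2193 in BM-LSKCD201+ against at most 152 in the day 5 groups, and their part in the Runx differences was not tested.

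Between fetal liver and bone marrow, the family was not shifted evenly. Runx2 was lower in FL-LSKCD201+ (log2 fold change -1.57, SE 0.11, limma adjusted p = 2.9e-05), as were Runx3 (-1.79, SE 0.11, adjusted p = 1.6e-05) and Cbfa2t3 (-1.21, SE 0.15, adjusted p = 0.000411). These were 3 of 7 members called, with 19.1% of all genes. Runx1 was short of the fold threshold (-0.44, SE 0.10, adjusted p = 0.00747), and Runx1t1 was the one member with a higher mean in fetal liver (0.83, SE 0.14, adjusted p = 0.00181), also short of it, although with a pseudocount of 0.1 it was called at 1.31 (adjusted p = 0.00310). Without FL-LSKCD201+ replicate 1, which stood apart, Runx2 was at -1.48, Runx3 at -1.84 and Cbfa2t3 at -1.05, and without BM-LSKCD201+ replicate 1 they were at -1.57, -1.83 and -1.25, each still called. Fetal liver libraries also held 338 to 513 FPKM of hepatocyte markers against 6.07 to 9.78 in bone marrow, and myeloid markers of 1828 to 1929 against 421 to 444. Erythroid markers summed to 337 to 385 FPKM against 3.46 to 11.9, and mast cell markers to 40.7 to 61.5 against 3.45 to 3.82. Pan-hematopoietic and T and NK cell markers, given above, were higher in bone marrow. The part of these markers in the differences of the members was not tested.

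In all, 5 lists were read beside the members: known RUNX1 target genes, RUNX2 target and osteoblast genes, RUNX coregulators, partners of the ETO family, and regulators upstream of Runx1. Of 20 RUNX1 targets, 10 were tested in the coculture table, and 5 were higher and 1 lower in 3D+OP9, where 2.62% of all genes were called. Their median log2 fold change was 0.73, against 0.01 over all genes. Itga2b (integrin CD41, an early marker of blood commitment) averaged 7.003 against 0.400 FPKM, Nfe2 (a megakaryocyte and erythroid factor) 4.48 against 0.537, and Gfi1b (a repressor) 2.54 against 0.0867, each called higher. The target called lower was Myl9, a myosin light chain of platelets and smooth muscle, at 14.7 against 32.4.

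Between D5-LSKCD201+ and D5-LSKCD201-, where Runx1 was lower, 14 of the targets were tested, and 5 were higher and 2 lower, with 24.7% of all genes called (median 0.39, against -0.12 over all genes). Itga2b averaged 45.2 against 3.78 FPKM, Alox12 (a platelet lipoxygenase) 13.3 against 1.28 and Ebf1 (a B cell factor) 10.6 against 2.68, all higher. Myl9, at 18.0 against 54.0, and Gfi1b, at 0.663 against 2.71, were lower. Itga2b thus rose where Runx1 fell, and Gfi1b, higher in 3D+OP9, was lower in D5-LSKCD201+.

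Among the RUNX2 target and osteoblast genes, few were expressed enough to be tested. Spp1 (osteopontin, also made by stromal and immune cells) averaged 143 against 9.21 FPKM between 3D+OP9 cells and the gelatin culture, and Col1a2 (type I collagen) 10.8 against 2.99. These were the 2 genes called among 8 tested, against 2.62% of all genes. In D5-LSKCD201+ against D5-LSKCD201-, 2 of 7 tested were called, against 24.7% of all genes, and both were lower: Alpl, an alkaline phosphatase that is also high in pluripotent cells, at 7.80 against 82.9, and Ihh, a hedgehog ligand, at 0.216 against 3.31. In BM-LSKCD201+, where Runx2 was highest, 4 of the 15 genes could be tested against mESC, and 4 were lower, with 53.1% of all genes called there in either direction.

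Of the 20 coregulators, such as histone acetyltransferases and TLE corepressors, 19 were tested in the coculture and 0 were called by limma, with 2.62% of all genes called (median log2 fold change 0.05, against 0.01 over all genes), although 6 had an unadjusted p under 0.05 and 2 an adjusted p under it. Between the day 5 LSK populations 20 were tested, 8 had an adjusted p under 0.05 and 2 of them were called, both higher, with 24.7% of all genes called. Both all-gene shares include the fold threshold, so the counts by p alone in either comparison have no background beside them. The 2 called were Ets1 (an ETS factor that binds DNA with RUNX1), at 64.7 against 5.75 FPKM, and Wwtr1 (TAZ, a coactivator of the Hippo pathway), at 28.5 against 5.79. Ets1 thus went the opposite way to Runx1 in this comparison.

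Of 22 partners of the ETO family, 5 of 21 tested were called in the coculture, against 2.62% of all genes, each higher in 3D+OP9. They included Tal1 (10.7 against 1.63 FPKM), Gata1 (3.95 against 0.123) and Lyl1 (5.27 against 0.747), factors of the complex in which CBFA2T3 acts. In D5-LSKCD201+ against D5-LSKCD201-, 5 of 20 tested were higher and 3 lower, with 24.7% of all genes called and a median log2 fold change of 0.10, against -0.12 over all genes. Lyl1 (46.2 against 3.71 FPKM), Gata2 (21.0 against 3.21) and Tal1 (5.85 against 0.771) were higher with Cbfa2t3, and Prdm14 (0.0439 against 7.98), the pluripotency factor, was lower with its partner Cbfa2t2. Gata1 (0.406 against 4.56) and Gfi1b were lower too.

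Of the 15 regulators upstream of Runx1, 5 of 15 tested were called in the coculture, against 2.62% of all genes, each higher in 3D+OP9, with Tal1, Fli1 (6.18 against 0.683 FPKM) and Spi1 (PU.1, 2.49 against 0.263) the most changed (median log2 fold change 0.91, against 0.01 over all genes). In D5-LSKCD201+ against D5-LSKCD201-, 9 of 14 tested were higher and 1 lower, with 24.7% of all genes called (median 1.498, against -0.12 over all genes). Fli1 averaged 55.9 against 3.81 FPKM, Sox7 70.1 against 5.16 and Ets1 as above, while Bmp4 was lower at 10.1 against 28.0. These lists were written by hand and their medians were not tested. The lists overlap, with Tal1, Lmo2, Gfi1b, Spi1 and Ets1 each in more than 1 of them, so the counts of different lists are not independent.

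Likeness of pattern was measured by Pearson's r of log2(FPKM + 1) over the 15 sorted-cell libraries, among 14457 genes, as a description in which libraries of a group are not independent points. Runx1 was followed most closely by Srgn (r = 0.998), Adgrg1 (0.992) and Plac8 (0.989). Each of these was higher in D5-LSKCD201- than in D5-LSKCD201+ in its mean and far higher in vivo, as Runx1 was, with Srgn at 30.2 FPKM in D5-LSKCD201-, at 9.23 in D5-LSKCD201+ and at 889 in BM-LSKCD201+. For Runx2 the nearest genes were Rel (0.995), Rnf213 (0.994) and Tnfaip8 (0.994), and for Runx3 they were Tnfrsf13c (0.998), Zbtb38 (0.997) and H2-DMa (0.996).

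Cbfb was nearest to Nucb1 (0.990), Il10rb (0.990) and Pbxip1 (0.989), Cbfa2t3 to Spns2 (0.996), Sec11c (0.996) and Dennd2d (0.993), and Cbfa2t2 to Pick1 (0.985), Zfp219 (0.983) and Pml (0.983). Runx1t1 had no neighbour above 0.897, the value for Gm42418, followed by Zfp871 (0.893) and Slc22a4 (0.892). Among the members themselves, Runx2 had r of 0.964 with Runx3, 0.958 with Cbfa2t3 and 0.948 with Runx1. Cbfa2t2 lay between -0.41 (with Cbfb) and 0.21 (with Runx3).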

How the data were processed

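RNA-seq was analysed from 21 libraries, 3 replicates in each of 7 groups taken from the sample labels. The authors deposited FPKM for each gene and library in 2 tables, 1 for the coculture (6 libraries) and 1 for the sorted cells (15). Per the labels and the study's methods, TRIzol was used for RNA extraction and a VAHTS mRNA-seq kit for the libraries. Reads were mapped to GRCm38 by HISAT2 2.0.5 and quantified with StringTie 1.3.3, with Cuffdiff 1.3.0 for testing. The submitters' processing notes also name the build mm9 without a role. No counts were used, so depth is unknown and no counting interval is given. With 3 libraries in each group, a two-sided exact permutation test cannot give a p below 0.1.

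A pseudocount of 1 was added to FPKM before the log2. In each of 11 comparisons, genes whose mean reached 0.5 FPKM were tested two-sided with limma 3.58.1 and its trend option under R 4.3.3, adjusted by Benjamini-Hochberg over all genes tested. The code was tested on simulated data. A member, list or marker counted as called where the adjusted p was below 0.05 and the log2 fold change was 1 or more in either direction. The genes named were the 7 members, up to 3 genes in each direction from each of 5 lists in the 2 comparisons of PSC-derived cells, and the 3 genes most like each member. Members, lists and tests were chosen with earlier results of these data known. The alternatives used 0.1 as pseudocount, no filter, a filter at 1 FPKM, a constant prior variance, quantile normalization, the adjusted p alone, a single fit of the 5 sorted-cell groups, the replicate number as a block, and leaving out each library. Same-numbered FL-LSKCD201+ and BM-LSKCD201+ libraries deviated together across genes (r = 0.242, 0.202 and 0.159), the only pair of groups with each r over 0.1, and the pairing there comes from the data alone.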

Additional observations from a re-analysis of the deposited data

How the results depend on the processing

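The 70 tests of a member were repeated under each alternative in which the gene was still tested, 973 values in all. Of these, 929 kept their direction and call. The replicate block changed no call of a member, and the counts stayed at 2 of the members in the coculture comparison, 3 between D5-LSKCD201+ and D5-LSKCD201- and 3 between FL-LSKCD201+ and BM-LSKCD201+. In the coculture comparison the 2 members called became 1 with no filter and with quantile normalization, and 1 to 2 when a library was left out, because Runx1 lost its call. Its log2 fold change was 1.03 with no filter (adjusted p = 0.0758), 0.93 with quantile normalization (adjusted p = 0.0515) and 0.89 to 1.22 without a library. With the adjusted p alone, more members were called in 9 of the 11 comparisons, and the count rose by over 1.5 times from 1 to 3 in D5-LSKCD201- against mESC and from 3 to 7 in FL-LSKCD201+ against BM-LSKCD201+. The all-gene shares given above include the fold threshold, so these counts have no background beside them. Quantile normalization shifted the all-gene median (log2) the most in BM-LSKCD201+ against mESC, from 0.23 to -0.06. The signs that turned belong to differences near 0 that were not called. With quantile normalization these were Runx1t1 in D5-LSKCD201+ against D5-LSKCD201- (0.17), Runx1t1 in D5-LSKCD201- against mESC (-0.18) and Cbfa2t2 in D5-LSKCD201- against BM-LSKCD201+ (0.013). When a library was left out, Runx2 in D5-LSKCD201+ against D5-LSKCD201- ran from -0.049 to 0.37. Runx1t1 ran from -0.093 to 0.13 in D5-LSKCD201+ against mESC, with 0.07 without D5-LSKCD201+ replicate 2, from -0.0027 to 0.23 in D5-LSKCD201- against mESC, and from -0.22 to 0.0039 in BM-LSKCD201+ against mESC. Calls near the fold threshold moved across it when a library was left out: Cbfa2t2 in D5-LSKCD201+ against D5-LSKCD201- ran from -1.19 to -0.94, Runx1 in D5-LSKCD201+ against mESC from 0.96 to 1.14, and Cbfb in FL-LSKCD201+ against mESC from 0.98 to 1.03. With quantile normalization, Cbfa2t2 in D5-LSKCD201+ against BM-LSKCD201+ and Cbfb in D5-LSKCD201- against BM-LSKCD201+ were both at -0.96, and Cbfa2t2 in D5-LSKCD201+ against D5-LSKCD201- was at -0.97, so that all 3 lost their calls. With a pseudocount of 0.1, Runx1t1 gained one in D5-LSKCD201+ against FL-LSKCD201+ (-1.07), FL-LSKCD201+ against BM-LSKCD201+ (1.31) and FL-LSKCD201+ against mESC (1.06), and Cbfb in FL-LSKCD201+ against mESC (1.03). The cause of these shifts was not tested. Values under 0.5 FPKM, such as those of Runx2 in the cocultures and Runx3 in the day 5 LSK cells, are the least certain, since depth is unknown.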
